A study of Mus musculus with 6 samples.

Results

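The primary (azurophil) granule genes of the neutrophil lineage examined here were Elane, Mpo, Prtn3, Ctsg and Ms4a3, 5 of the 28786 gene IDs in the count table. They were taken by matching these symbols to mouse Ensembl IDs, each matched exactly 1 row, and all 5 were among the 13662 genes that passed the low-count filter. The RNA was that of bone marrow cells from C57BL/6 mice, wild type and 6 to 8 weeks old. Haematopoietic stem cells (HSCs), gated as negative for lineage markers and CD48 and positive for Sca-1, c-Kit and CD150, were sorted as TMRM-high or TMRM-low, 1500 cells per library and 3 libraries per group. TMRM is a cationic dye that collects in mitochondria with a high membrane potential, so the comparison asks how the RNA of HSCs differs with that signal. Whether the 3 libraries of a group stand for different mice is not in the labels, so the spread behind each p-value is that of libraries and may be technical.

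Azurophil granules are the first granules that a maturing neutrophil makes, at the promyelocyte stage, and they carry peroxidase and serine proteases that kill ingested microbes. Their genes are transcribed in a short window of granulocyte-monocyte progenitors and promyelocytes under C/EBP, PU.1, MYB and RUNX factors, and are known for low-level transcripts in multipotent cells before any granule is formed. Elane encodes neutrophil elastase, Prtn3 proteinase 3 and Ctsg cathepsin G, all serine proteases. Mpo encodes myeloperoxidase, the haem enzyme that makes hypochlorous acid from hydrogen peroxide and chloride. Ms4a3 encodes a membrane-spanning protein rather than granule cargo and serves in mice as a marker of granulocyte-monocyte progenitors and their progeny.

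On GRCm38, Elane (ENSMUSG00000020125) lies on chromosome 10 from 79886247 to 79888215, on the plus strand, and Prtn3 (ENSMUSG00000057729) directly before it from 79874476 to 79883174 on the same strand, with 3073 bases between the annotated genes. Mpo (ENSMUSG00000009350) lies on chromosome 11 from 87793581 to 87804413 on the plus strand, Ctsg (ENSMUSG00000040314) on chromosome 14 from 56099881 to 56102574 on the minus strand, and Ms4a3 (ENSMUSG00000024681) on chromosome 19 from 11629496 to 11640851 on the minus strand. Each is annotated as protein coding. The longest coding transcript has 5 exons in Elane, Prtn3 and Ctsg, 14 in Mpo and 7 in Ms4a3.

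Promoter sequences are shown because all 5 genes were higher in TMRM-high libraries. Windows of 300 bases, from 250 before to 50 after the RefSeq start site, were taken from RefSeq on GRCm38.p6, where all 5 genes matched. Both strands were searched for GGAAGT and the longer GAGGAAGT, which contains it (bound by ETS family factors such as PU.1), CAACNG and TAACNG (MYB), GCAAT (the core of a C/EBP site) and TGTGGT (RUNX), motifs that were chosen after the sequences had been seen. The neighbours Elane and Prtn3 are given from 150 bases before to 20 bases after their start sites, at chr10:79886162-79886331 and chr10:79879517-79879686, plus strand, with every match in capitals.
Elane: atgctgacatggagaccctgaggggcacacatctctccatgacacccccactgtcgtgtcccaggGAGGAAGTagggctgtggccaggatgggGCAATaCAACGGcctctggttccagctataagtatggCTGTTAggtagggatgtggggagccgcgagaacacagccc
Prtn3: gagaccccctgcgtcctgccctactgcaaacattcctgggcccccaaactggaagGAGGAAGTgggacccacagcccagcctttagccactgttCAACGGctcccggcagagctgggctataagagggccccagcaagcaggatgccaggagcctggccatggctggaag

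Both neighbours hold GAGGAAGT, starting 85 bases before the start site in Elane and 95 bases before it in Prtn3, and both hold CAACGG, starting 51 and 56 bases before it. The Elane window also holds GCAAT, starting 57 bases before the start site, and, starting 20 bases before it, CTGTTA, which reads on the other strand as a match to TAACNG. Neither of these was found in the Prtn3 window. For the other 3 genes the stretch around the first forward GGAAGT is shown, with 20 bases on each side and that match in capitals. It lies at chr11:87793542-87793587 on the plus strand for Mpo, chr14:56102754-56102799 on the minus strand for Ctsg and chr19:11640881-11640926 on the minus strand for Ms4a3.
Mpo: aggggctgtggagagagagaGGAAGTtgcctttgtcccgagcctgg
Ctsg: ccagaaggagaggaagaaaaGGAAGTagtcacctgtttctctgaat
Ms4a3: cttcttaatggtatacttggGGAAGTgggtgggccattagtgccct

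GGAAGT was found in 5 of the 5 windows, against 23.7% of 32544 distinct windows in the RefSeq table, and GAGGAAGT in 3 of 5 against 3.11%. CAACNG was found in 3 of 5 (34.9% of all windows), TAACNG in 2 (23.4%), GCAAT in 3 (26.2%) and TGTGGT in 1 (16.7%). The motifs were chosen after these sequences had been seen, so the counts describe the 5 windows and do not measure enrichment. These are matches of letters, not measured binding sites. RefSeq and GENCODE M21 place the start site at the same base for Ctsg and Ms4a3, whereas the RefSeq site lies 65 bases inside the GENCODE gene for Elane, 203 bases inside it for Mpo and 5191 bases inside it for Prtn3. The Mpo match, which starts 222 bases before the RefSeq site, therefore starts 19 bases before the GENCODE one.

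Levels are given as CPM (counts per 1000000 of a library, with TMM scaling) and differences as TMRM-high minus TMRM-low. Library sizes in counts ran from 14270069 to 22070594 over TMRM-high and from 15930495 to 18431567 over TMRM-low libraries. Elane had 3114, 2958 and 3036 CPM in TMRM-high libraries, against 257, 230 and 209 CPM in TMRM-low libraries. The groups stood far apart, with the lowest TMRM-high library at 11.5 times the highest TMRM-low library. The log2 fold change was 3.71 (SE 0.0820), a 13.1-fold higher level, with an adjusted p of 7.1e-07 in edgeR's quasi-likelihood test.

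Prtn3, directly upstream of Elane, had 2151, 1973 and 2009 CPM in TMRM-high libraries, against 990, 889 and 908 CPM in TMRM-low libraries. Its groups did not overlap either, but the difference was much smaller than that of its neighbour, 2.20-fold (log2 1.14, SE 0.0587, edgeR adjusted p = 4.9e-05). Ctsg had 809, 827 and 831 CPM in TMRM-high libraries, against 393, 278 and 302 CPM in TMRM-low libraries. Replicate 1 of the TMRM-low libraries was the highest of its group and still below every TMRM-high library. Ctsg was 2.54-fold higher (log2 1.34, SE 0.121, edgeR adjusted p = 0.00055), the widest error of the 5 genes.

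Mpo was the most abundant of the 5 by CPM in both groups. It had 5584, 5492 and 5525 CPM in TMRM-high libraries, against 1920, 1803 and 1808 CPM in TMRM-low libraries, which put it 11th among the tested genes by mean CPM in TMRM-high and 41st in TMRM-low libraries. It was 3.00-fold higher (log2 1.59, SE 0.0407, edgeR adjusted p = 1.1e-06). Ms4a3 had 516, 492 and 510 CPM in TMRM-high libraries, against 68.9, 72.8 and 86.4 CPM in TMRM-low libraries. The lowest TMRM-high library stood at 5.7 times the highest TMRM-low library. The difference was 6.65-fold (log2 2.73, SE 0.0966, edgeR adjusted p = 6.4e-06), the largest of the 5 after Elane. The same ratio of the lowest TMRM-high to the highest TMRM-low library was 2.86 for Mpo, 2.06 for Ctsg and 1.99 for Prtn3. No library was high or low throughout: among TMRM-high libraries replicate 1 was the highest for Elane, Mpo, Prtn3 and Ms4a3 and the lowest for Ctsg, and among TMRM-low libraries replicate 1 was the highest for Elane, Mpo, Prtn3 and Ctsg and the lowest for Ms4a3.

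**Figure D1:**
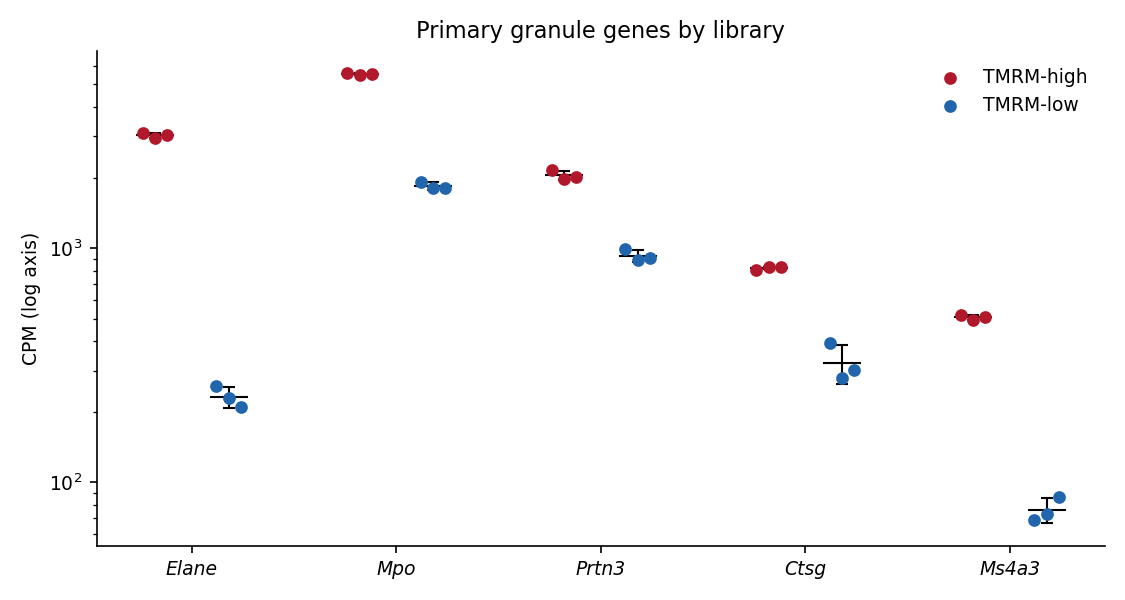
CPM of the 5 genes in each library on a log axis, with TMRM-high libraries in red left of TMRM-low libraries in blue; each point is 1 library, horizontal bars are means and error bars SD (n = 3 per group). For each gene the 3 TMRM-high points lie above the 3 TMRM-low points, with the widest gap for Elane (3036 ± 78.3 CPM in TMRM-high, against 232 ± 23.9 CPM in TMRM-low libraries).

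All 5 genes were thus called higher, where 5.84% of all tested genes were called higher and 5.12% lower. That background was lower with fewer TMRM-high libraries: leaving out replicate 1, 2 or 3 of them gave 1.82%, 1.92% or 1.77% higher and 1.41%, 1.35% or 1.28% lower, and summing them gave 0.525% higher and 0.223% lower, with all 5 genes still called higher each time. The background was larger without TMRM-low replicate 1, 2 or 3, at 8.67%, 8.64% or 9.99% higher and 6.97%, 7.54% or 8.39% lower. DESeq2 gave 9.44% each way, and all 5 genes were called higher in these fits too. The CPM of the groups did not overlap for 5 of 5, against 18.4% of tested genes that were higher with no overlap. The genes were chosen with earlier results of these data known, so these counts describe the genes and do not measure enrichment. Elane ranked 198th of 13662 by the size of its increase and 2nd by p-value; by size Ms4a3 ranked 311th, Mpo 613th, Ctsg 744th and Prtn3 892nd. These ranks by size place above each of the 5 genes 62 genes with no count in TMRM-low libraries, whose fitted fold changes have no fixed size. Without them Elane ranked 136th of 13600, Ms4a3 249th, Mpo 551st, Ctsg 682nd and Prtn3 830th. In ranks by level the change was largest for Elane, which was 16th in TMRM-high and 579th in TMRM-low libraries, and for Ms4a3, 219th in TMRM-high and 2564th in TMRM-low libraries. RNA of pooled cells cannot tell more cells that carry a transcript from more transcript per cell.

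**Figure D2:**
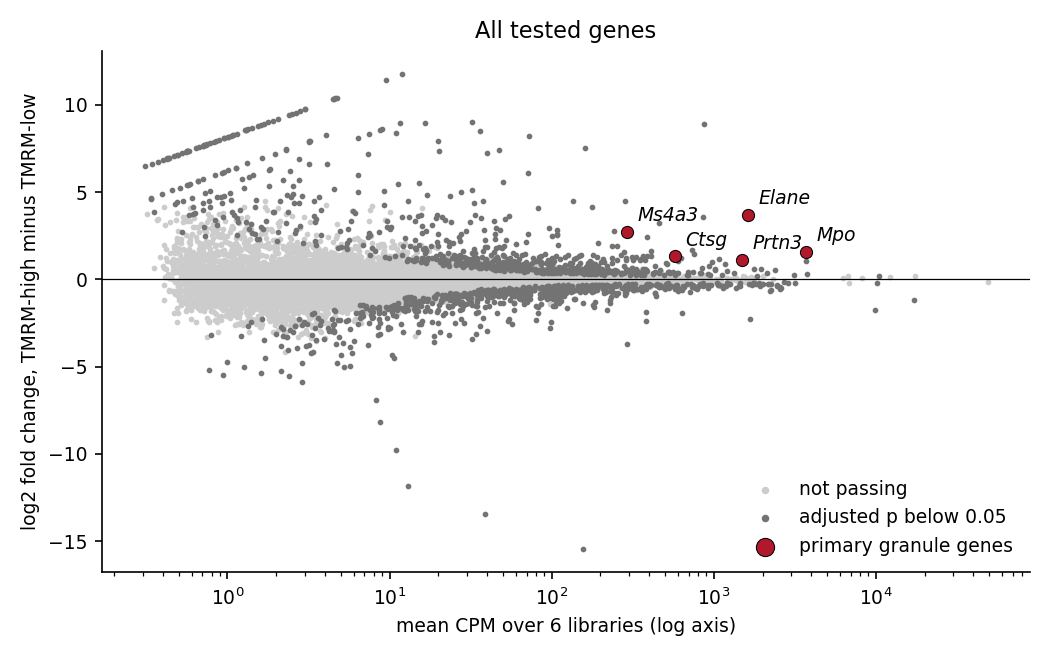
Log2 fold change (TMRM-high minus TMRM-low, edgeR) against mean CPM over the 6 libraries (log axis) for 13662 tested genes; dark points passed an adjusted p of 0.05 and light points did not. The 5 red points lie between 1.14 and 3.71 at the abundant end, and the slanting line of points at upper left is made of genes with no count in TMRM-low libraries, whose fitted fold changes are not meaningful.

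Together the 5 genes held 1.22%, 1.19% and 1.20% of all counts in TMRM-high libraries (95% Wilson intervals 1.212 to 1.221, 1.181 to 1.191 and 1.197 to 1.208). In TMRM-low libraries they held 0.353%, 0.329% and 0.330% (0.3499 to 0.3554, 0.3264 to 0.3321 and 0.3277 to 0.3330). The intervals cover counting error only. The share was 3.56 times as large in TMRM-high libraries, and the two-sided exact permutation p was 0.10, the smallest that 3 against 3 libraries allow. In CPM, Mpo contributed the largest increment, 3690, and Elane the next, 2804, with 1115 from Prtn3, 498 from Ctsg and 430 from Ms4a3.

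The make-up of this RNA differed between the groups as well as its amount. Divided by the length of the longest coding transcript, Elane was the most abundant of the 5 in TMRM-high libraries, at 3085 ± 79.5 CPM per kb, followed by Mpo (2012 ± 17.0) and Prtn3 (1995 ± 91.9), which did not differ beyond their spread, then Ctsg (821 ± 11.5) and Ms4a3 (501 ± 12.4). In TMRM-low libraries Prtn3 led with 907 ± 51.9 CPM per kb, followed by Mpo (670 ± 24.0), Ctsg (323 ± 60.4), Elane (236 ± 24.3) and Ms4a3 (75.3 ± 9.08; SD, n = 3 in each group). Elane made up 36.5% to 36.8% of the summed level per kb in TMRM-high libraries, against 9.92% to 11.1% in TMRM-low libraries. Prtn3 made up 23.4% to 24.4% in TMRM-high libraries, against 40.5% to 41.4% in TMRM-low libraries. Mpo, the peroxidase gene, made up 23.6% to 24.2% in TMRM-high libraries, against 29.3% to 31.1% in TMRM-low libraries, and Ctsg 9.38% to 10% in TMRM-high, against 13.2% to 16.4% in TMRM-low libraries. Ms4a3 had the smallest share, 5.91% to 6.02% in TMRM-high, against 2.86% to 3.99% in TMRM-low libraries. Elane and Ms4a3 thus held a larger part in TMRM-high libraries and the other 3 genes a smaller one. By level per kb, Elane stood above Prtn3 in each TMRM-high library and below it in each TMRM-low library.

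**Figure D3:**
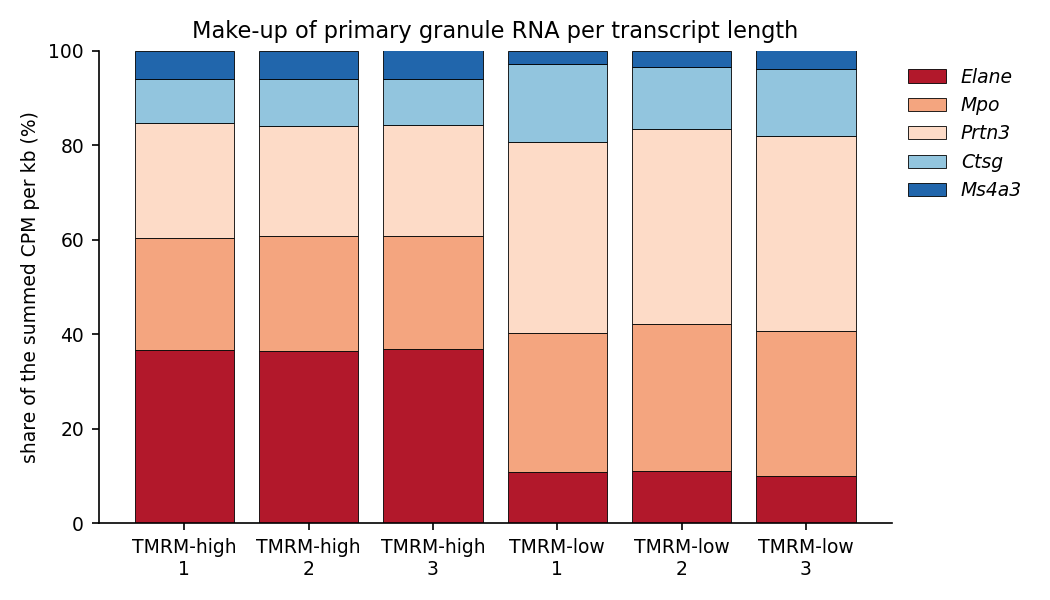
Share of each gene in the summed CPM per kb of the 5 genes, in percent, for the 3 TMRM-high libraries on the left and the 3 TMRM-low libraries on the right; each bar is 1 library. Elane takes 36.5% to 36.8% of the TMRM-high bars and 9.92% to 11.1% of the TMRM-low bars, while the bars within a group differ little.

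Ratios between the genes show how unequal the differences were. Elane had 1.45, 1.5 and 1.51 times the CPM of Prtn3 in TMRM-high libraries, against 0.260, 0.259 and 0.230 times in TMRM-low libraries, a 5.96-fold difference of the ratio. Against Mpo, Elane stood at 0.558, 0.539 and 0.549 in TMRM-high libraries and at 0.134, 0.128 and 0.116 in TMRM-low libraries. Elane over Ctsg, its fellow protease gene, was 3.85, 3.58 and 3.65 in TMRM-high libraries and 0.654, 0.83 and 0.692 in TMRM-low libraries. Elane over Ms4a3, the pair with the largest increases, was 6.03, 6.01 and 5.95 in TMRM-high libraries and 3.73, 3.16 and 2.42 in TMRM-low libraries. Mpo over Ms4a3 went the other way, at 10.8, 11.2 and 10.8 in TMRM-high libraries and 27.9, 24.8 and 20.9 in TMRM-low libraries, and so did Prtn3 over Ms4a3, at 3.94 to 4.17 in TMRM-high and 10.5 to 14.4 in TMRM-low libraries. Ctsg over Ms4a3 was 1.57 to 1.68 in TMRM-high and 3.5 to 5.7 in TMRM-low libraries. The ratios of Mpo to Prtn3 and Ctsg differed less: it had 2.6, 2.78 and 2.75 times the CPM of Prtn3 in TMRM-high libraries, against 1.94, 2.03 and 1.99 times in TMRM-low libraries, and 6.64 to 6.9 times that of Ctsg in TMRM-high, against 4.89 to 6.49 times in TMRM-low libraries. Prtn3 over Ctsg was the exception among the 10 pairs: it ran from 2.39 to 2.66 in TMRM-high and from 2.52 to 3.20 in TMRM-low libraries, and the groups overlapped. Over the 10 pairs, 9 had ratios that did not overlap between the groups, where 63.9% of 183921 pairs of genes called higher with at least 5 CPM and no library at 0 did not. Each of those 9 pairs had a two-sided exact permutation p of 0.10, the smallest possible, or 0.11 after Benjamini-Hochberg adjustment over the 10 pairs, and Prtn3 over Ctsg had 0.20.

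The 5 genes varied little between TMRM-high libraries, with a coefficient of variation from 0.844% (Mpo) to 4.61% (Prtn3). Between TMRM-low libraries it ran from 3.58% (Mpo) to 18.7% (Ctsg), where counting alone would give 0.561% to 2.76%. The same held for the whole table: chi-square per degree of freedom, about 1 for counting noise alone, was 3.98 to 6.74 between TMRM-high libraries, 46.0 to 51.4 between TMRM-low libraries and 89.9 to 118 across groups. With the TMRM-high libraries summed into 1, the log2 fold changes stood within the ranges given under the processing alternatives and each of the 5 genes passed, the largest adjusted p being 0.022 for Ctsg over all alternatives.

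The counts of Elane and Ctsg were the least exposed to misassignment: neither shares exon bases or any 31-base word with another annotated gene. Prtn3 shares 159 of its 1732 exon bases with Plppr3, a lipid phosphatase-related gene on the opposite strand, and the library method does not mark strand. Plppr3 itself had 115 ± 3.65 CPM in TMRM-high libraries, against 144 ± 18.9 CPM in TMRM-low libraries (SD, n = 3 each), and did not pass the test. Mpo shares 512 of 3424 exon bases with the antisense gene Gm11505, whose counts were not analysed here, and 12.1% of its words occur in other genes. Ms4a3 shares 1.22% of its words.

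Related genes were grouped by role in 6 lists, which held 53 genes, 52 of them tested. Of these 27 were higher, 2 were lower and 23 did not pass, where 5.84% of all tested genes were called higher and 5.12% lower. When the TMRM-high libraries were summed, 13 were higher, among them 1 of 7 cargo genes, 1 of 8 processing genes, 6 of 10 stage genes, 1 of 10 transcription factor genes and 4 of 10 later granule genes. Prss57 (adjusted p = 0.32), Lyz2 (0.38), Cst7 (0.071) and others were then not called (edgeR). Among other primary granule cargo 4 of 7 tested genes were higher and 3 did not pass, and the median log2 fold change was 0.54, beside -0.03 over all tested genes. Cd63, a tetraspanin of the granule membrane, rose to 437 ± 5.36 CPM in TMRM-high, against 201 ± 14.4 CPM in TMRM-low libraries (log2 1.12, SE 0.0699). Prss57, which encodes a further serine protease of these granules, was at 134 ± 0.696 CPM in TMRM-high, against 68.6 ± 13.3 CPM in TMRM-low libraries (0.97, SE 0.141). Lyz2, lysozyme, was at 391 ± 15.4 CPM in TMRM-high, against 269 ± 29.0 CPM in TMRM-low libraries (0.54, SE 0.0866). Arsb, a lysosomal sulfatase gene, was higher by 0.80 on the log2 scale (SE 0.149). The acid hydrolase genes Gusb (101 ± 1.53 CPM in TMRM-high libraries, against 94.6 ± 14.2 CPM in TMRM-low libraries) and Man2b1 (105 ± 9.78 CPM in TMRM-high, against 101 ± 2.96 CPM in TMRM-low libraries) did not pass. Without TMRM-high replicate 1, 2 or 3 Arsb had an adjusted p of 0.072, 0.093 or 0.089, and without replicate 3 Lyz2 had 0.059, so that 2 calls were left without replicate 3.

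Of 8 genes for processing, packaging and inhibition, 5 were higher and 3 did not pass (median log2 fold change 0.40). Srgn, whose product serglycin is the proteoglycan that holds granule proteins, was at 1476 ± 25.6 CPM in TMRM-high libraries, against 665 ± 92.4 CPM in TMRM-low libraries (log2 1.15, SE 0.0969). Cst7, the cystatin F gene for an inhibitor of cathepsin C, was at 153 ± 4.99 CPM in TMRM-high, against 59.7 ± 8.09 CPM in TMRM-low libraries (1.35, SE 0.118). Smaller increases were seen for Canx, a chaperone of myeloperoxidase folding (0.40, SE 0.0729), and Serpinb1a, an inhibitor of these proteases (0.40, SE 0.0717). Slpi, another elastase inhibitor (0.58, SE 0.151), and Ap3b1, a sorting adaptor of granule proteins (-0.18, SE 0.120), did not pass. Without any 1 TMRM-high library 2 of these 5 calls were left; Canx then had adjusted p-values of 0.053 to 0.082 and Serpinb1a of 0.063 to 0.081.

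Of 10 genes of the promyelocyte and neutrophil progenitor stage, 8 were higher and 2 did not pass (median log2 fold change 2.17). Fcnb, ficolin B, had 309, 326 and 320 CPM in TMRM-high libraries, against 1.62, 2.75 and 0.925 CPM in TMRM-low libraries, a log2 fold change of 7.51 (SE 0.280). Ly6c2, a surface antigen of myeloid progenitors and monocytes, was at 655 ± 14.3 CPM in TMRM-high, against 124 ± 8.89 CPM in TMRM-low libraries (2.40, SE 0.0715), and the C-type lectin receptor gene Clec12a at 400 ± 13.9 CPM in TMRM-high, against 105 ± 10.8 CPM in TMRM-low libraries (1.94, SE 0.0898). Nkg7, which encodes a granule membrane protein, was at 556 ± 6.18 CPM in TMRM-high, against 218 ± 24.1 CPM in TMRM-low libraries (1.35, SE 0.0861). Plac8 did not follow, at 1040, 1020 and 1030 CPM in TMRM-high libraries, against 1047, 1021 and 1027 CPM in TMRM-low libraries, and Clec5a, with TMRM-low libraries spread from 0.810 to 20.3 CPM, did not pass.

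Of 10 transcription factor genes of this programme, 6 did not pass, 3 were higher and 1 was lower (median log2 fold change 0.15). Cebpe, whose product drives promyelocytes towards later granules, was at 77.7, 69.5 and 69.5 CPM in TMRM-high libraries, against 2.89, 2.37 and 4.14 CPM in TMRM-low libraries (log2 4.52, SE 0.244). Gfi1, a repressor needed for neutrophil differentiation, was at 72.9 ± 3.65 CPM in TMRM-high, against 28.4 ± 9.69 CPM in TMRM-low libraries (1.36, SE 0.252), and Myb at 477 ± 19.0 CPM in TMRM-high, against 370 ± 33.4 CPM in TMRM-low libraries (0.36, SE 0.0777). Irf8, which favours monocytes over neutrophils, fell to 173 ± 9.39 CPM in TMRM-high, against 323 ± 22.3 CPM in TMRM-low libraries (-0.90, SE 0.0793). Spi1, the PU.1 gene (-0.24, SE 0.106), and Cbfb, the partner of RUNX proteins (-0.08, SE 0.121), did not pass. Without any 1 TMRM-high library only Cebpe of the 3 remained called higher; Gfi1 then had adjusted p-values of 0.067 to 0.084 and Myb of 0.094 to 0.13. With the TMRM-high libraries summed Irf8 had 0.084.

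Later neutrophil granule genes were higher in 6 of 10 cases and did not pass in 4 (median log2 fold change 2.77). The cathelicidin gene Camp was at 337 ± 13.8 CPM in TMRM-high libraries, against 18.8 ± 2.84 CPM in TMRM-low libraries (4.17, SE 0.128). Of 7 surface genes of granulocyte-monocyte progenitors 1 was higher, 1 was lower and 5 did not pass (median log2 fold change 0.20). The Fc receptor gene Fcgr2b was higher (0.90, SE 0.185), though not without any 1 TMRM-high library (adjusted p 0.10 to 0.14) or with the replicate number as a block (0.056), and Cd34, a sialomucin of progenitors, was lower (-0.44, SE 0.0637), though not with the TMRM-high libraries summed (0.56). The G-CSF receptor gene Csf3r was at 107 ± 6.22 CPM in TMRM-high libraries, against 89.3 ± 11.2 CPM in TMRM-low libraries, and did not pass, nor did Csf2rb. Adjusted p-values in these paragraphs are from edgeR's quasi-likelihood test.

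**Figure D4:**
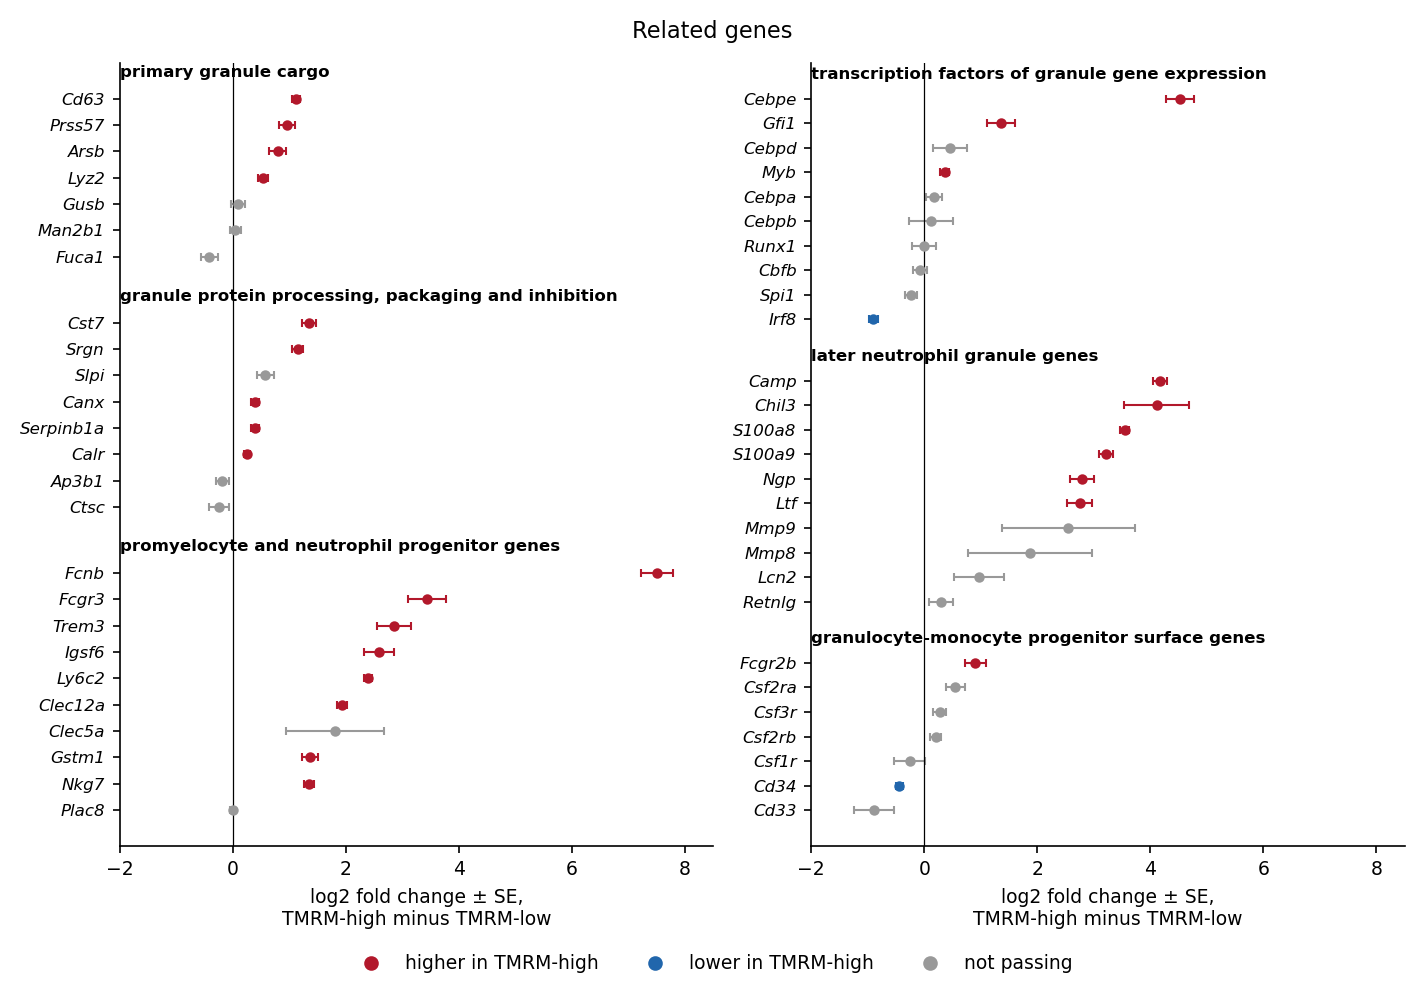
Log2 fold change (TMRM-high minus TMRM-low) with SE for the 52 tested genes of the 6 lists, red where higher, blue where lower and grey where the adjusted p was not below 0.05. Fcnb (7.51) and Cebpe (4.52) lie farthest to the right, and the blue points are Irf8 (-0.90) and Cd34 (-0.44).

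Markers of HSCs and of other cell types also differed between the groups. Over all tested genes 5.84% were called higher and 5.12% lower, shares that moved with the libraries used, as given above. Of 8 HSC markers 4 were lower (2 with the TMRM-high libraries summed) and 4 did not pass, and their summed level was 424 to 434 CPM in TMRM-high libraries, against 695 to 812 CPM in TMRM-low libraries. Procr had 3.57 ± 0.304 CPM in TMRM-high libraries, against 33.9 ± 9.84 CPM in TMRM-low libraries (log2 -3.25, SE 0.299), a call lost with the TMRM-high libraries summed (adjusted p = 0.099, edgeR). Of the genes behind the sort, Ly6a, which encodes Sca-1, was at 30.3 ± 2.18 CPM in TMRM-high, against 167 ± 7.77 CPM in TMRM-low libraries (log2 -2.47, SE 0.103). Kit (263 ± 4.93 CPM in TMRM-high, against 248 ± 53.9 CPM in TMRM-low libraries) and Slamf1, which encodes CD150 (5.53 ± 0.569 CPM in TMRM-high, against 5.13 ± 3.98 CPM in TMRM-low libraries), did not pass. Of 6 mature neutrophil markers 4 were tested and did not pass (1 was higher without TMRM-low replicate 1 or 3). Their median log2 fold change was 1.02. The summed level of the list was 61.9 to 63.5 CPM in TMRM-high libraries, against 47.1 to 60.4 CPM in TMRM-low libraries. Most of it came from Cxcr2 (23.6 ± 0.324 CPM in TMRM-high, against 26.5 ± 4.88 CPM in TMRM-low libraries) and Retnlg (25.8 ± 0.574, against 21.1 ± 4.22). Mmp8 (7.41 ± 1.36, against 2.01 ± 3.02) and Il1r2 (5.5 ± 0.97, against 1.62 ± 2.5) averaged higher in TMRM-high libraries, with wide spread between TMRM-low libraries. Ly6g, the defining surface gene of mature neutrophils, averaged 0.493 ± 0.212 CPM in TMRM-high libraries, against 0.291 ± 0.504 CPM in TMRM-low libraries, too low to test, and Stfa2l1 had no count in TMRM-high libraries.

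Monocyte markers were lower in 4 of 6 cases (2 without any 1 TMRM-high library, 1 with these libraries summed) and did not pass in 2, with a summed level of 170 to 184 CPM in TMRM-high libraries, against 352 to 443 CPM in TMRM-low libraries. T and NK cell markers were lower in 3 of 5 cases (1 without TMRM-high replicate 1, 2 without replicate 2), at 51.7 to 56.7 CPM in TMRM-high, against 139 to 170 CPM in TMRM-low libraries. Most of this level was Cd3d (46.6 ± 3.46 CPM in TMRM-high, against 126 ± 15.7 CPM in TMRM-low libraries). Gzma (3.64 ± 0.827, against 1.81 ± 2.36), which did not pass, and Cd3e (0.448 ± 0.274, against 0.0817 ± 0.0959), too low to test, averaged higher in TMRM-high libraries. Without TMRM-low replicate 1, 1 gene of the list was called higher. With the TMRM-high libraries summed the 3 calls were lost (Cd3d 0.08, Ncr1 0.29 and Klrb1c 0.65, adjusted p, edgeR). Markers of basophils, mast cells and eosinophils were higher in 4 of 7 cases (3 without any 1 TMRM-high library, 2 with them summed, 6 or 7 without TMRM-low replicate 2 or 1), at 233 to 237 CPM in TMRM-high libraries, against 31.1 to 52.5 CPM in TMRM-low libraries, where Epx was at 0. Erythroid markers were higher in 5 of 7 cases (2 without TMRM-high replicate 1 or 3, 3 without replicate 2, 1 with them summed), at 193 to 214 CPM in TMRM-high, against 39.2 to 63.8 CPM in TMRM-low libraries, and B cell markers in 6 of 6 (5 without any 1 TMRM-high library, 4 with them summed), at 325 to 342 CPM in TMRM-high, against 38.4 to 44.8 CPM in TMRM-low libraries. Among genes of the lineage gate Itgam, which encodes CD11b of myeloid cells, was at 46.9 ± 1.54 CPM in TMRM-high libraries, against 19.4 ± 4.76 CPM in TMRM-low libraries, a call lost without any 1 TMRM-high library (adjusted p 0.060 to 0.070, edgeR). Cells of the sort gate should lack this protein. The part of any of these cell types in the levels of the granule genes was not tested.

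Within 100 kb of the 5 genes lie 41 other genes of the table, of which 19 were tested, 4 were higher (Prss57, Ptbp1, Tspoap1 and Epx), 3 were lower (Med16, Wdr18 and Ms4a6b) and 12 did not pass. Fewer were called with fewer TMRM-high libraries: without any 1 of them 2 higher calls and no lower one were left, while DESeq2 called 7 higher and 4 lower. At an unadjusted p below 0.05 (edgeR), the fits without 1 TMRM-high library gave 6 or 7 higher and 3 or 4 lower neighbours. All tested genes gave 1194 to 1233 higher and 1117 to 1185 lower of 14041 to 14140 at that threshold. Over all tested genes the main fit called 5.84% higher and 5.12% lower. Leaving out 1 TMRM-high library gave 1.77% to 1.92% higher and 1.28% to 1.41% lower, and DESeq2 gave 9.44% each way. With the TMRM-high libraries summed the shares were smaller still, as given above. Around Elane and Prtn3, Cfd, which encodes the complement protease factor D and lies 2.64 kb downstream of Elane, was barely detected (0.532 ± 0.0406 CPM in TMRM-high libraries, against 1.10 ± 1.90 CPM in TMRM-low libraries) and not tested. Med16, a Mediator subunit gene 6.49 kb downstream of Elane, was lower (log2 -0.61, SE 0.132), though not without any 1 TMRM-high library (adjusted p 0.12 to 0.15, edgeR) or with the replicate number as a block (0.065). Wdr18, 71.9 kb downstream of Elane, was at 74.6 ± 4.10 CPM in TMRM-high, against 120 ± 17.7 CPM in TMRM-low libraries (log2 -0.68, SE 0.127). Ptbp1, a splicing regulator gene 9.71 kb upstream of Prtn3, was higher by 0.27 on the log2 scale (SE 0.0706), a call lost under 9 alternatives.

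Next to Mpo, Tspoap1, which encodes a scaffold protein and lies 7.65 kb upstream, had 35.8, 37.5 and 33.1 CPM in TMRM-high libraries, against 2.43, 4.74 and 2.23 CPM in TMRM-low libraries (log2 3.50, SE 0.347, beside 1.59 for Mpo), with an edgeR adjusted p of 0.00084, or 0.099 with the TMRM-high libraries summed. The peroxidase genes downstream were scarcely expressed: Lpo, lactoperoxidase, had 36 counts in all 6 libraries. Epx, eosinophil peroxidase, had 1.54, 0.616 and 1.87 CPM in TMRM-high libraries, while TMRM-low libraries held none of its 73 counts. With the TMRM-low group set to 3 counts in all, Epx was at least 22.5-fold higher (leaving out 1 library gave bounds of 14.5 to 28.8). Its call was lost without any 1 TMRM-high library (adjusted p 0.069 to 0.11). Around Ctsg, in the granzyme and mast cell protease cluster, 1 of 10 neighbours was tested: Mcpt8, a basophil protease gene 14.6 kb downstream, at 39.5 ± 1.25 CPM in TMRM-high libraries, against 24.6 ± 4.88 CPM in TMRM-low libraries, which did not pass. Around Ms4a3, Ms4a2, a subunit gene of the IgE receptor, had 3.27 ± 0.260 CPM in TMRM-high libraries, against 0.674 ± 1.12 CPM in TMRM-low libraries, and did not pass. Ms4a6b was lower (log2 -1.04, SE 0.220), though not without any 1 TMRM-high library (adjusted p 0.12 to 0.13, edgeR).

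**Figure D5:**
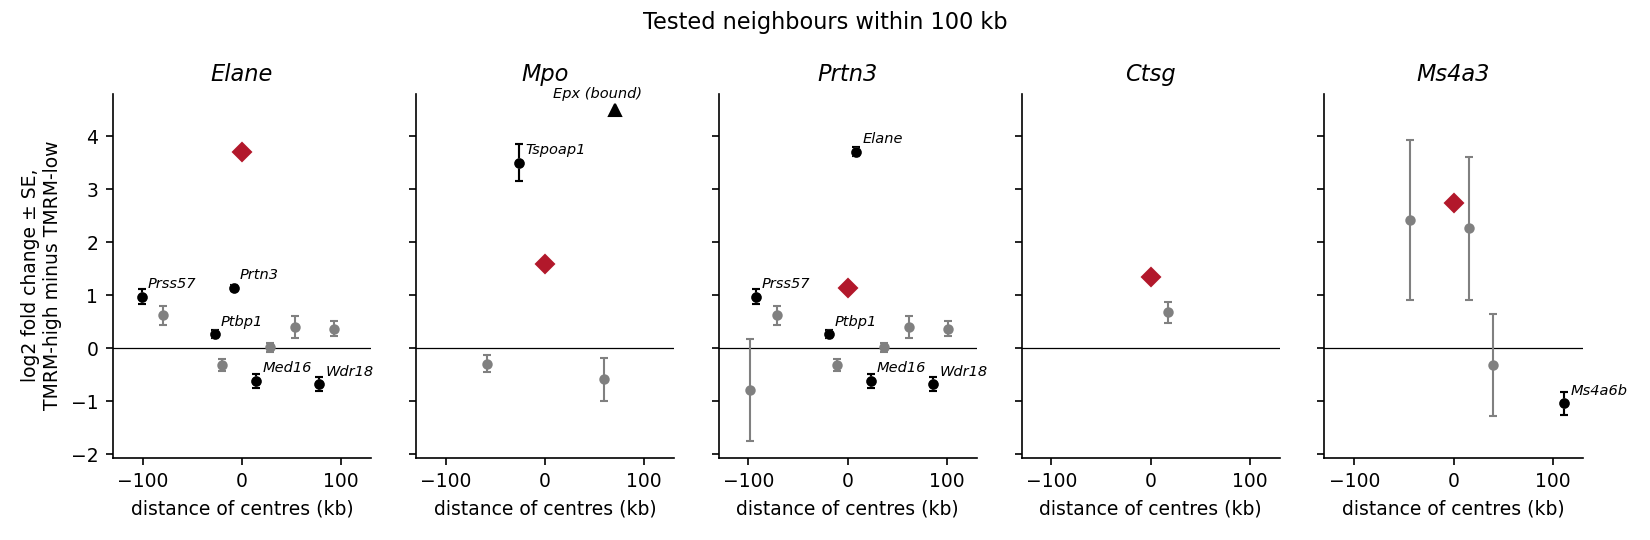
Log2 fold change (TMRM-high minus TMRM-low) with SE of tested genes within 100 kb of each granule gene, against the distance between gene centres in kb (positive is downstream of the granule gene, by its strand). The red diamond in each panel is its own granule gene, black points passed and are named, grey points did not pass, and the triangle is the lower bound for Epx. Elane and Prtn3 also appear as black points in each other's panel.

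The genes with the most similar profile were sought among 10274 tested genes with a symbol and at least 5 CPM, by Euclidean distance between log2 CPM centred over the 6 libraries. With 2 groups this distance mostly reflects the size of the difference and the spread between libraries. S100a8, a calprotectin subunit (log2 fold change 3.55, distance 0.44), and the chemokine gene Cxcl10 (3.42, distance 0.52) were nearest to Elane. The call of Cxcl10 was lost with the TMRM-high libraries summed (adjusted p = 0.062, edgeR). Ighm, an immunoglobulin heavy chain gene (1.68, distance 0.23), and Cks2, a cell cycle kinase subunit gene (1.59, distance 0.24), were nearest to Mpo. Cd63 (distance 0.12) and Sat1, a polyamine enzyme gene (1.16, distance 0.16), were nearest to Prtn3. Gstm1, a glutathione transferase gene (1.37, distance 0.17), and Msrb1, a methionine sulfoxide reductase gene (1.40, distance 0.18), were nearest to Ctsg; neither was called when the TMRM-high libraries were summed (adjusted p = 0.051 for Gstm1 and 0.63 for Msrb1, edgeR), nor Msrb1 without TMRM-high replicate 1 (0.051). Pglyrp1, a neutrophil peptidoglycan recognition protein gene (2.57, distance 0.23), and Hdc, the histidine decarboxylase gene (2.62, distance 0.35), were nearest to Ms4a3.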

How the data were processed

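RNA of 6 libraries was amplified with 13 PCR cycles, tagmented and sequenced as paired reads of 150 bases, per the labels' protocols; no molecular identifiers or strand marks are described. GRCm38, Salmon (listed as 0.03.1) and Trim Galore 0.5.0 are named in the submitters' processing notes, and the sources used here give no annotation or settings. The authors deposited estimated counts for each gene with no depth scaling, and these were rounded to whole numbers. Symbols matched 27728 of 28786 IDs and positions came from GENCODE M21 (GRCm38).

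Genes were kept by filterByExpr, scaled by TMM and tested across all genes with edgeR 4.0.16 (quasi-likelihood, robust, group as the only term; R 4.3.3), with calls at an adjusted p (Benjamini-Hochberg) under 0.05. The SE is the log2 fold change divided by the square root of F. The code was tested on simulated data with the same spread in both groups. That test does not cover the unequal spread of these libraries. Alternatives included DESeq2 1.42.0 and limma 3.58.1 (voom). The members, lists and tests were chosen with earlier results of these data known. Named are the members, up to 4 called genes per list by p and up to 2 not passing by CPM. Named too are the nearest tested neighbours (up to 4 per member) and the 2 nearest profiles per member. Cd3e, Cfd, Il1r2, Lpo, Ly6g, Mmp8, Slamf1, Stfa2l1 and Wdr18 were added after their values were seen, and some genes within the rule are left undescribed. The labels do not pair the libraries by replicate number, and the main fit used no pairing. Positions of promoter matches are those of the first base of the match before the start site.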

Additional observations from a re-analysis of the deposited data

How the results depend on the processing

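Each of the 5 granule genes kept its direction and its call under the 16 alternatives run (scaling, filter, DESeq2, limma voom, replicate block, an adjusted p of 0.10, each library left out, TMRM-high libraries summed). The adjusted p of 0.10 reuses the main fit, so no call could be lost there. Log2 fold changes ran from 3.64 to 3.79 for Elane, 1.57 to 1.62 for Mpo, 1.10 to 1.19 for Prtn3, 1.25 to 1.51 for Ctsg and 2.67 to 2.84 for Ms4a3, each range set by leaving out 1 library, and the largest adjusted p was 0.022 (Ctsg). The ratio of the shares of counts and the direction of the ratios between genes held with each library left out. Counts over all genes moved: DESeq2 called 1471 higher and 1471 lower, an adjusted p below 0.10 gave 1190 and 1138, and leaving out 1 library gave 250 to 1398 higher and 181 to 1174 lower; leaving out 1 library gave 19 to 31 higher and 2 to 3 lower related genes; the causes were not tested. With the TMRM-high libraries summed, 80 genes were higher and 34 lower, and 13 and 0 of the related genes (edgeR; Irf8 and Cd34 then had adjusted p-values of 0.084 and 0.56); that fit has 1 TMRM-high library and takes its spread from TMRM-low libraries. The replicate block gave 582 higher and 449 lower. Correlations of the deviations of same-numbered libraries were -0.03, 0.01 and 0.04. These cannot decide whether same-numbered libraries were paired, because the TMRM-high libraries differed little from each other. The 10 nearest profiles were the same genes with a prior count of 0.5. Genes at a few CPM are limited by counting and by spread between libraries, as for Clec5a (0.81, 20.3 and 5.06 CPM in TMRM-low libraries).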
